A study of Mus with 15 samples.

Results

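Monoubiquitinated histone H2A (H2AK119ub, written H2Aub) was examined at 5 genes of the GATA family of zinc finger transcription factors, Gata2, Gata3, Gata4, Gata5 and Gata6, out of 21887 protein-coding genes placed on chromosomes 1 to 19, X and Y. The genes were taken by family name, with earlier results of these data known, and every peak that overlapped the gene body or the 10 kb on each side of it (the window of the gene) was taken. H2Aub had been profiled by ChIPmentation, a chromatin immunoprecipitation in which the Tn5 transposase adds the sequencing adapters on the beads, in thalami of mice aged 2 to 4 months, with the thalami of several mice pooled per library. All mice received saline for 3 days, followed by 5 days of either cocaine at 20 mg/kg by the intraperitoneal route or saline. The control mice, called WT in the labels, carried the Maged1 Loxp genotype, and in the Maged1 cKO mice Cre under the vGluT2 promoter deleted Maged1, so that cells outside the Vglut2 lineage kept the gene. The 11 lists of peaks, 1 per library, came from cocaine-treated WT (3), saline-treated WT (3), cocaine-treated cKO (2) and saline-treated cKO mice (3). The covered length of a gene is the number of bp of its window that lay under peaks of a library.

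GATA factors bind DNA through a pair of zinc fingers, and their genes are switched on in a restricted set of lineages. Gata2 and Gata3 act in blood cells, and in the embryonic midbrain and diencephalon they direct neurons to the GABA fate. Gata4, Gata5 and Gata6 are known mainly as regulators of heart and endoderm. H2Aub is placed by Polycomb repressive complex 1, and genes of developmental regulators that are silent in a cell type often lie in wide Polycomb domains. Most neurons of the thalamus are glutamatergic. The peak lists hold no expression values, so neither the cell types in the samples nor the deletion of Maged1 could be checked with them, and fewer cells carrying the mark cannot be told apart from less mark per cell.

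The lists differed in length for reasons that no value in them gives, since they contain no read counts and the depth of each library is unknown (the study gives only a minimum for all samples). The replicates numbered 1 of cKO cocaine and cKO saline stood apart, with 54653 and 80713 peaks and highest fold enrichments of 31.2 and 52.6, where the other 9 libraries had 7271 to 26055 peaks and highest fold enrichments of 5.98 to 12.2. The shortest list was that of cKO saline replicate 3. Comparisons that use the cKO replicates 1 are also given without them.

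All 5 genes carried H2Aub peaks in 11 of 11 libraries. This was so for 1713 of all protein-coding genes (7.83%), while 5987 (27.4%) had no peak in any library and the median protein-coding gene had a covered length of 0 bp. Without the cKO replicates 1, the 5 genes had a peak in 9 of 9 libraries, as 7.84% of protein-coding genes did. When each list was shortened to its 7271 strongest peaks, the length of the shortest list, Gata3, Gata4 and Gata6 still had a peak in every library (2.04% of protein-coding genes did), and Gata2 and Gata5 lacked one in the cKO replicates 1 and in no other library. The remaining family member, Gata1, an X-linked regulator of red cell and platelet development, had a peak in 1 of 11 libraries, with 209 bp in cKO saline replicate 1.

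Gata4 (gene ID 14463), a cardiac and endodermal factor, had the longest coverage of the family. Its body spans chr14:63198914-63271712 in mm10, and its covered length had a median of 30165 bp over the libraries (19118 to 35445 bp), which 6 protein-coding genes exceeded. Gata3 (gene ID 14462, chr2:9857078-9887953), which acts in T cells and in GABA neurons, followed with a median of 23707 bp (15223 to 26270 bp), exceeded by 25 genes. The order of the pair held in 11 of 11 libraries, although their ranges overlapped.

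Gata2 (gene ID 14461, chr6:88193891-88207032), a factor of blood stem cells and GABA neurons, had a median of 15568 bp (12046 to 17910 bp), and 102 genes had more. Gata6 (gene ID 14465, chr18:11052510-11085636), a factor of endoderm and heart, had a median of 13135 bp (9940 to 16280 bp), and 135 genes had more. Gata3 exceeded Gata2 in 11 of 11 libraries and Gata2 exceeded Gata6 in 10 of 11, so these neighbours in the order overlapped in range but seldom changed places within a library.

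Gata5 (gene ID 14464, chr2:180325088-180335503), another factor of heart and endoderm, stood below the rest with a median of 2478 bp (1435 to 4432 bp). It was below Gata6 in 11 of 11 libraries, and their ranges did not overlap. With 919 genes above it, Gata5 lay near the middle of the 1713 genes that had a peak in every library, whose median covered length was 2568 bp.

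**Figure D1:**
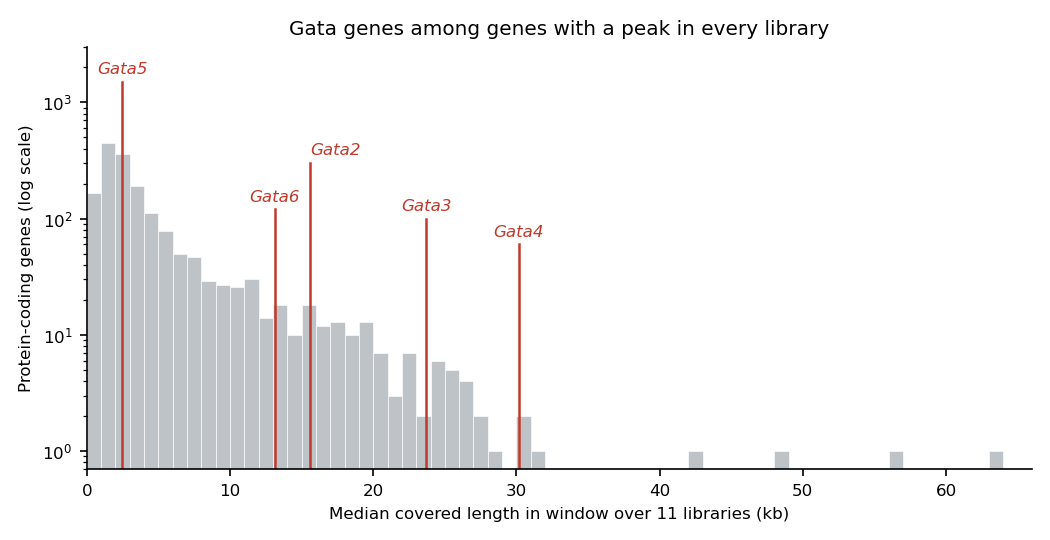
Histogram of the median covered length over 11 libraries (horizontal axis, kb, bins of 1 kb) for the 1713 protein-coding genes with a peak in every library (vertical axis, number of genes, log scale), with red lines at the 5 Gata genes. Gata4, at 30165 bp, lies in the upper tail, and Gata5, at 2478 bp, lies in the bulk of the genes.

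Since long windows can hold more covered bp, the share of the window was also computed. The median share was 47.0% for Gata2 and 46.6% for Gata3, and neither was above the other in all libraries (Gata2 was higher in 6 of 11). It was 32.5% for Gata4, 24.7% for Gata6 and 8.15% for Gata5. By share of the window the pair linked to GABA neurons thus came before the 3 genes of heart and endoderm, with Gata3 above Gata4 in 11 of 11 libraries and Gata4 above Gata6 in 10 of 11.

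Rank among all protein-coding genes with a peak, which does not use the scale of a list, placed Gata4 between 6 and 19 in the 9 libraries other than the cKO replicates 1 and at 37 and 31 in those of cKO cocaine and cKO saline. Gata3 ranked 18 to 41 in the 9 libraries and 59 and 46 in the 2 others. Gata2 ranked 80 to 140 in the 9 libraries and 84 and 121 in the others, within the same span. Gata6 ranked 106 to 184 and then 162 and 229. Gata5 ranked 580 to 985 in the 9 libraries and 2757 and 3693 in the cKO replicates 1, where 12454 and 14464 protein-coding genes had a peak, against 3201 to 6977 elsewhere.

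The position of the peaks differed from gene to gene and recurred between libraries. Positions are given in kb from the end of the gene with the lower coordinate, because the strand was not in the gene table and the start of transcription could not be told from the other end. Peaks of a library that lay within 1 kb of each other were joined into a domain.

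Over Gata2 the mark covered nearly the whole gene. Between 79.0% (cKO saline replicate 1) and 98.1% (cKO cocaine replicate 2) of the gene body lay under peaks, and the widest domain had a median of 13921 bp, slightly above the length of the gene (13142 bp). A total of 8762 bp was covered in all 11 libraries, and 99.7% of it was inside the gene body. The longest of these stretches ran from 5.66 to 11.2 kb. In the 3 cKO saline libraries and in WT saline replicate 3 at least 2 peaks overlapped the gene body, and in the other 7 libraries a single peak did. The widest peak was 6489 to 9037 bp in cKO saline, 11729 to 13463 bp in WT saline and 13177 to 14891 bp in the cocaine libraries of both genotypes. The widest domain, with peaks joined, was 12617 to 13858 bp in cKO saline and 12637 to 20696 bp in WT saline. It was 13177 to 16538 bp in cKO cocaine and 13921 to 18526 bp in WT cocaine. By domain, cKO saline thus overlapped with WT saline and cKO cocaine and lay below WT cocaine. In 1.98% of the 1713 genes with a peak in every library, Gata2 among them, the widest peaks of the 3 cKO saline libraries were narrower than those of the other 8. This grouping followed the values of Gata2 and is not among the comparisons below, so the share is a description only. Small peaks lay outside the lower-coordinate end in every library, over the lncRNA gene Gm38708, which overlaps that end of Gata2. Peaks there cannot be assigned to either gene.

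Over Gata3 the mark lay on the higher-coordinate side and ran past the end of the gene. The widest domain had a median of 26162 bp. In 8 of the 11 libraries it began between 12.8 and 16.2 kb and ended between 40.4 and 42.2 kb, whereas the gene ends at 30876 bp. In the other 3 libraries, the cKO replicates 1 and cKO saline replicate 3, the widest domain was 10160, 19484 and 11458 bp, because gaps above 1 kb divided it. The stretches covered in all 11 libraries added up to 8966 bp, of which 66.2% was inside the gene body, and the longest ran from 25.3 to 27.8 kb. The domain lay over the lncRNA genes 4930412O13Rik and 9230102O04Rik, which were covered over a median of 5522 and 6500 bp, their full lengths.

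Over Gata4 the mark occupied the higher-coordinate part of a long gene, from about 38.0 kb to the end of the gene at 72799 bp. Coverage of 12036 bp was common to all 11 libraries, 99.0% of it inside the body, and its longest stretch ran from 45.6 to 49.8 kb. A thin stretch divided the domain, and no library had a peak between 59.692 and 59.999 kb. The widest domains were those of WT cocaine replicate 1 (35837 bp), WT saline replicate 3 (34448 bp), cKO cocaine replicate 2 (36199 bp) and cKO saline replicate 2 (34931 bp), so 1 library of each group had a domain of this width. The lower-coordinate part of the gene held scattered narrow peaks only. The protein-coding neighbour Neil2, a DNA glycosylase of base excision repair, has 5241 bp inside the window. That part had covered bp in 5 of 11 libraries, at most 363 bp.

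At Gata5 the mark was a small domain near the higher-coordinate end, where the lncRNA gene Gata5os overlaps it. The widest domain had a median of 2299 bp (1264 to 4730 bp), and 416 bp from 9.45 to 9.87 kb was covered in all 11 libraries. These bases were 4.43% of those covered in any library, against 27.7 to 39.3% for the other 4 genes. Gata5os had covered bp in 11 libraries and the next lncRNA gene, Gm52543, had covered bp inside the window in 9.

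Over Gata6 the domain lay at the lower-coordinate end, on both sides of it. The widest domain had a median of 12749 bp (9281 to 15678 bp), beginning 5.25 to 7.53 kb outside the gene and reaching 3.49 to 8.92 kb into it. Of the 7107 bp common to all 11 libraries, 42.4% was inside the gene body, the lowest share of the 5 genes. The part outside lay over the lncRNA gene Gata6os, whose covered length inside the window had a median of 6290 bp. A second, narrower stretch inside the gene was common to all libraries from 6.48 to 6.64 kb.

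**Figure D2:**
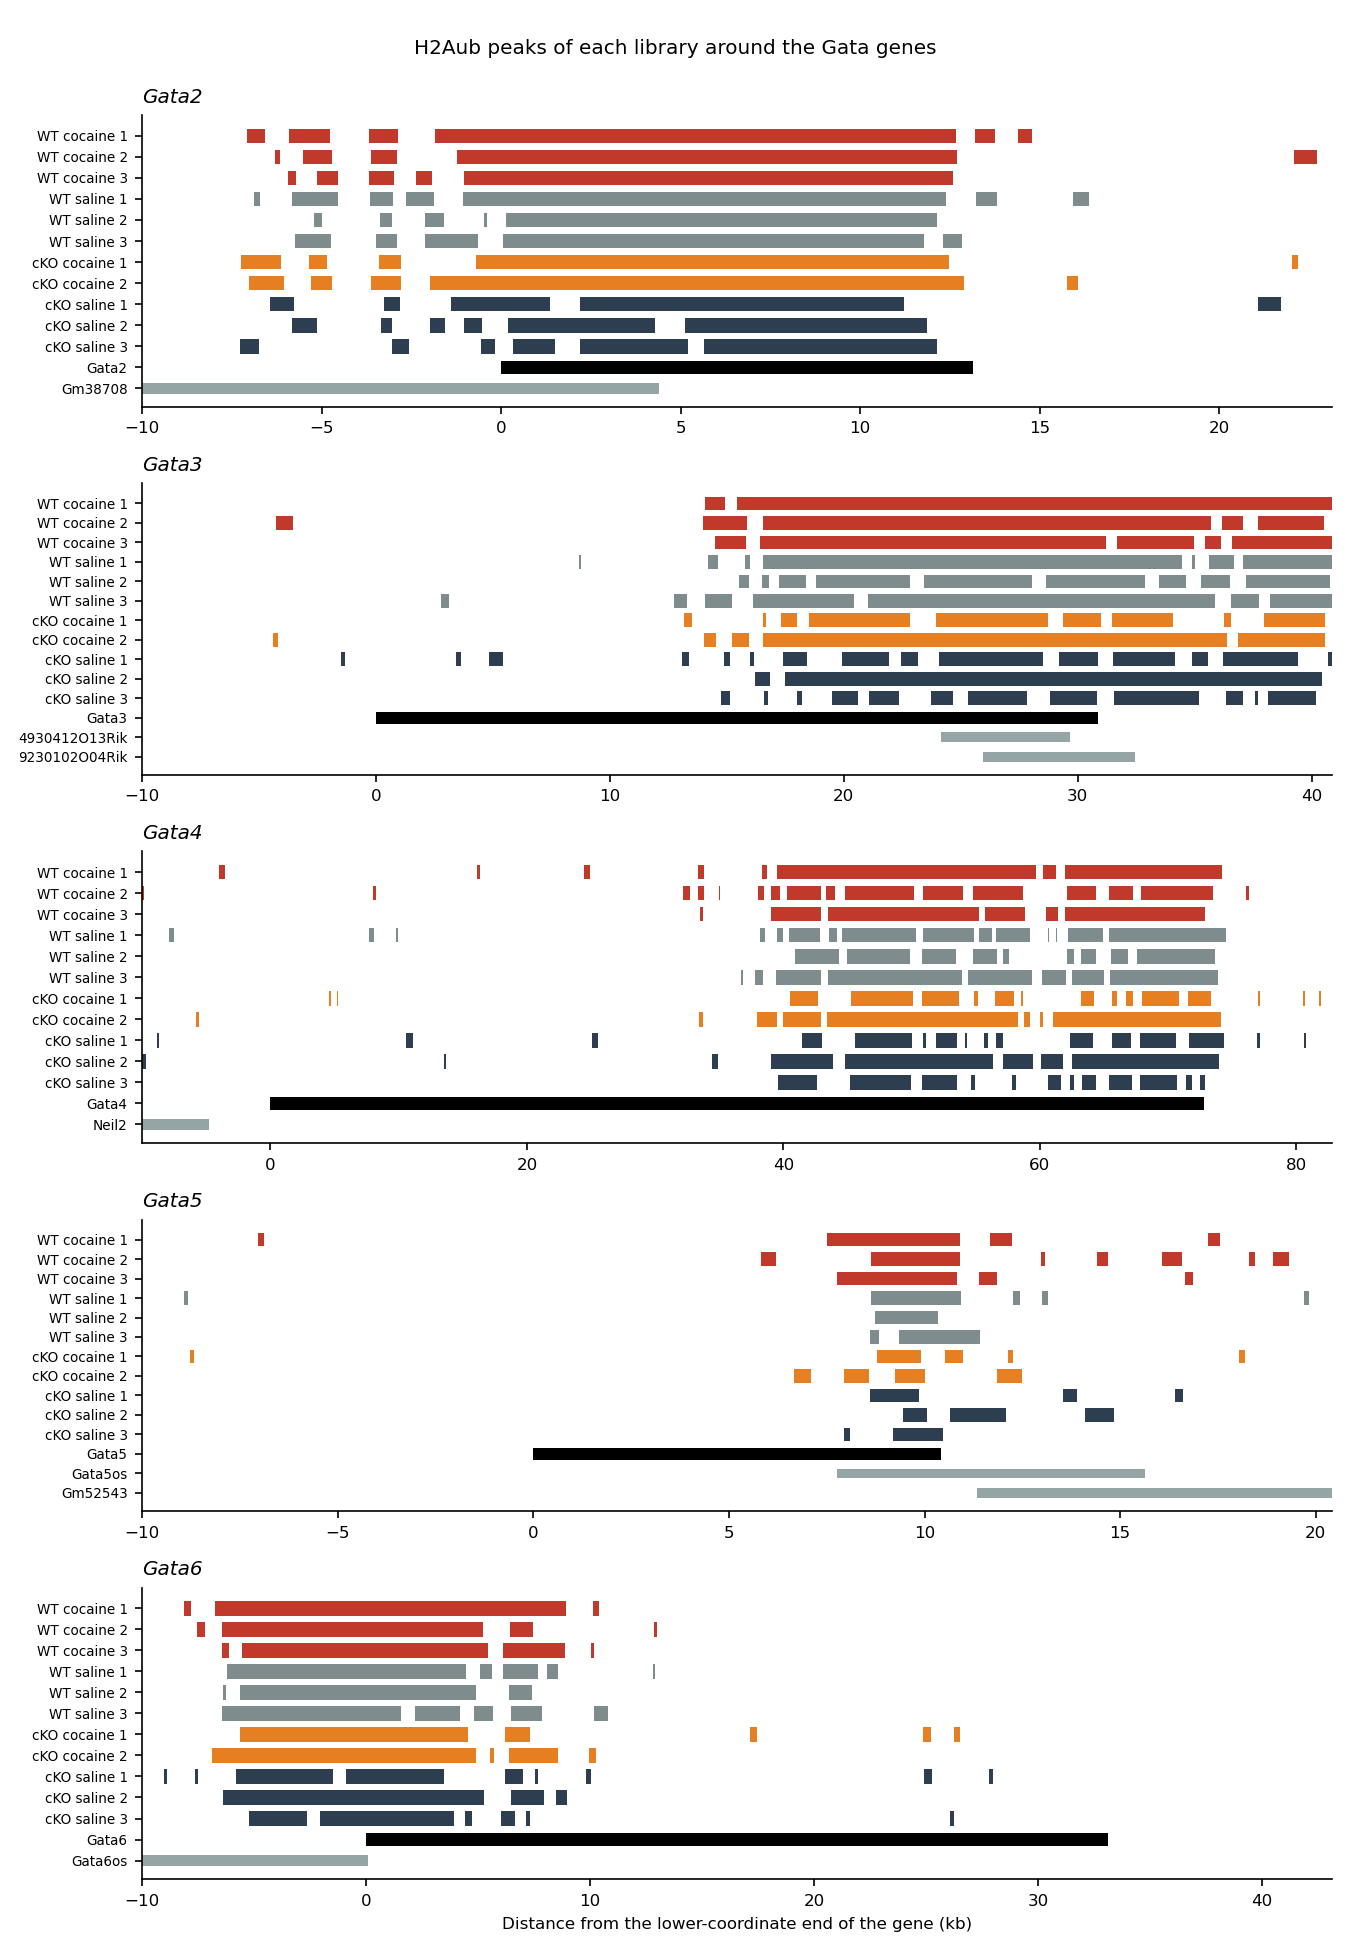
Peaks of each of the 11 libraries (rows, coloured by group) over the window of each Gata gene, with the distance from the lower-coordinate gene end in kb on the horizontal axis. Black bars are the Gata genes and grey bars the neighbouring genes named at the left. Peaks cover the body of Gata2, the higher-coordinate side of Gata3 and Gata4, the last few kb of Gata5 and the lower-coordinate end of Gata6 in all 11 libraries.

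The fold enrichment of the peaks, as the peak caller gave it, set the cKO replicates 1 apart at these genes too. In the other 9 libraries no peak of the 5 genes exceeded 5.99-fold. The cKO replicates 1 held 16 peaks above that value. The strongest of them were narrow and lay at nearly the same positions in both libraries, outside the wide domains of those libraries. At Gata6 a peak of 327 bp from 24.9 to 25.2 kb reached 16.04-fold in cKO cocaine replicate 1, and a peak of 350 bp at that place reached 14.3-fold in cKO saline replicate 1. At Gata4, 217 and 299 bp near 77.0 kb, outside the gene, reached 12.2-fold and 13.9-fold. At Gata3, 344 and 291 bp near 13.2 kb reached 12.3-fold and 10.6-fold. None of the other 9 libraries had a peak at the Gata4 and Gata6 positions. Narrow peaks also occurred in other libraries. At Gata3 the widest peak was 4774 and 4468 bp in the cKO replicates 1, but also 3658 bp in cKO saline replicate 3 and 4636 bp in WT saline replicate 2, and up to 26663 bp elsewhere. At Gata2 it was 13177 bp in cKO cocaine replicate 1. Whether the form of these lists plays a part in the cKO values given below was not tested.

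To ask how far the wide coverage extended to genes that work with GATA factors, lists of known partners were counted. Among 19 partners of Gata2 and Gata3 in blood and in GABA neurons, 14 had a peak in all 11 libraries, and the median covered length was 4271 bp. Lhx1, a LIM homeobox gene, had the most (median 15050 bp), and Ldb1, the widely used LIM cofactor, had a peak in 2 libraries, the fewest. Among 18 partners of Gata4, Gata5 and Gata6 in heart and endoderm, 13 had a peak in all 11 libraries, with a median of 10403 bp. Tbx5, a T-box factor of the heart, had the most (27390 bp), and Mef2c, which the brain uses as well, had a peak in 3 libraries. Of 5 genes that share the GATA type of zinc finger but belong to other families, such as Trps1 and Gatad2a, 0 had a peak in every library, and all 5 had a median of 0 bp. The background for these counts was 7.83%.

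Genes that mark cell types of the thalamus were counted in the same way. Of 7 genes of thalamic glutamatergic neurons, 1 had a peak in all libraries (Gbx2, a homeobox gene of the developing thalamus, median 11750 bp). Of 5 genes of GABA neurons, 4 did, with Gad1, which makes GABA, at a median of 9669 bp. Among these 4, Gad1, Gad2 and Slc32a1 (3 genes) also stand in the list of 19 partners, so they are counted in both. The counts were 1 of 4 for astrocytes, 1 of 4 for oligodendrocytes (Olig2, 10973 bp), 0 of 3 for microglia and 1 of 3 for endothelium.

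**Figure D3:**
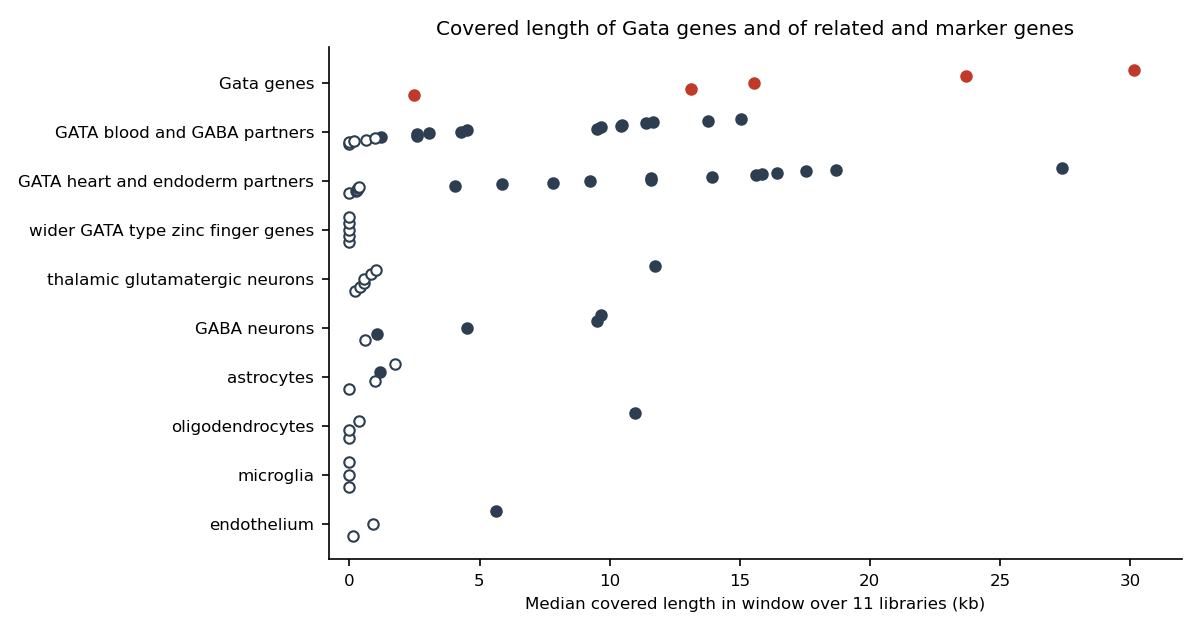
Median covered length over 11 libraries (horizontal axis, kb) of the 5 Gata genes (red) and of each gene of the partner and cell type lists (rows, dark points). Filled points had a peak in all 11 libraries and open points did not, and the vertical offset within a row only separates points. The 5 zinc finger genes of other families lie at 0 bp, and Gata4 and Gata3 lie above all listed genes except Tbx5, which is between them.

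The genes whose coverage over the 11 libraries was most like that of each Gata gene were also named, by the mean absolute difference in log2(covered bp + 100). For Gata2 they were Six2 (0.0763), Mthfsd, Pitx1, Foxd2 and Dmrta2. For Gata3 they were Hoxb9 (0.0775), Hoxc9, Hoxd11, Meis2 and Hoxc10. The genes near Gata4 included Hoxd10 (0.170), Tfap2a, Pax3 and Hoxc6, and those near Gata6 included Foxc2 (0.0916), Tlx3, Foxl2 and Prdm6. With the exception of Mthfsd, a gene of folate metabolism, the genes named for these 4 were transcription factors of homeobox, forkhead, DM domain, paired, AP-2 and PR domain families. The nearest to Gata5 were Pcdh8 (0.251), Ripk3, Slc35d3, Tdrd1 and Lbx2, of which only Lbx2 is a transcription factor, and their distances were larger than those of the other 4 genes. Covered length depends on the list a library gave, which all genes share, so the likeness is a description.

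The effect of cocaine in WT mice was examined first. By covered length, Gata5 was the gene whose libraries separated. Its covered length was 4432, 4135 and 3743 bp in the 3 WT cocaine libraries and 2868, 1593 and 2311 bp in the 3 WT saline libraries. All cocaine values lay above all saline values, with means of 4103 ± 346 and 2257 ± 639 bp (SD, n = 3 each). The difference was 1846 ± 420 bp (SE), a ratio of 1.82 (exact permutation test, two-sided, p = 0.10, the smallest possible for 3 against 3; adjusted p = 0.626 over 9395 genes). Groups of all protein-coding genes with a peak in these libraries failed to overlap, with cocaine higher, in 15.7% of cases, and 1 of 5 Gata genes did so. Among the 1713 genes with a peak in every library the share was 34.0%. Expressed per covered Mb of the list, the total length under peaks of a library, Gata5 no longer separated the groups, with a difference of 24.5 bp per covered Mb (exact permutation p = 0.80). The widest domain of Gata5 did not separate them either, at 2284 to 4730 bp in WT cocaine and 1593 to 2809 bp in WT saline.

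The other 4 genes overlapped between the WT groups. Gata2 measured 17910, 16263 and 15630 bp in WT cocaine and 17336, 13227 and 15310 bp in WT saline (difference 1310 ± 1367 bp, SE, exact permutation p = 0.40). Gata3 measured 26270, 25510 and 24394 bp in WT cocaine and 23707, 20779 and 25068 bp in WT saline (2207 ± 1378 bp, exact permutation p = 0.20). In both genes WT saline replicate 2, the shortest of the WT lists with 8955 peaks, had the lowest value. With single libraries left out, the difference ran from 278 bp (without WT saline replicate 2) to 2332.5 bp (without WT saline replicate 1) at Gata2, and from 1004 bp (without WT saline replicate 2) to 3148 bp (without WT saline replicate 3) at Gata3.

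Gata4 measured 35445, 28384 and 30895 bp in WT cocaine and 30165, 22479 and 32367 bp in WT saline (3238 ± 3641 bp, exact permutation p = 0.50), and the difference ran from 309 bp without WT saline replicate 2 to 5253 bp without WT saline replicate 3. Gata6 measured 16280, 13135 and 14128 bp in WT cocaine and 13374, 11738 and 12842 bp in WT saline (1863 ± 1046 bp, exact permutation p = 0.20), and the difference ran from 980 bp without WT cocaine replicate 1 to 2553 bp without WT cocaine replicate 2. The ratios of cocaine to saline for these 4 genes lay between 1.09 and 1.15, and the adjusted p values between 0.789 and 1. All 5 means were higher after cocaine, as was the case for 96.3% of the genes with a peak in every library, and per covered Mb of the list Gata2, Gata3, Gata4 and Gata6 were lower after cocaine instead.

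Individual bases showed little that was present in one WT group and absent in the other. At Gata4, 298 bp in 2 stretches lay under peaks of all 3 WT cocaine and no WT saline library, the longer (252 bp) from 33.5 to 33.8 kb, outside the wide domain. At Gata3 there was 1 such stretch of 84 bp, at Gata6 1 of 6 bp, and at Gata2 and Gata5 none. The converse, bases under peaks of all 3 WT saline and no WT cocaine library, occurred at Gata2 over 50 bp.

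**Figure D4:**
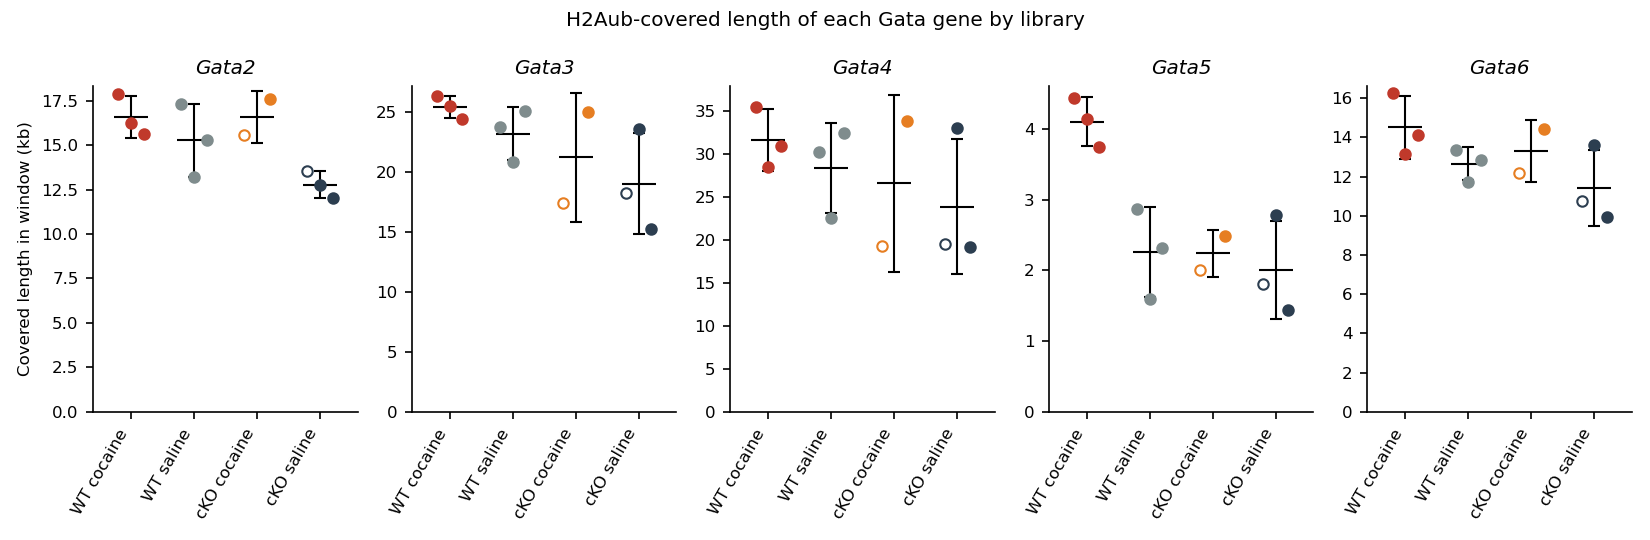
Covered length in the window (vertical axis, kb, from 0, a scale of its own for each gene) of each library (points) in the 4 groups, with group means and SD (horizontal and vertical black lines, n = 3, or 2 in cKO cocaine). Open points are the replicates numbered 1 of the cKO groups. The 3 WT cocaine points of Gata5, 3743 to 4432 bp, lie above all other libraries, and the 3 cKO saline points of Gata2, 12046 to 13530 bp, lie below both cKO cocaine points.

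The same comparison in Maged1 cKO mice gave another gene. Gata2 measured 15568 and 17611 bp in cKO cocaine and 13530, 12776 and 12046 bp in cKO saline, so that both cocaine libraries lay above all 3 saline libraries. The means were 16589.5 ± 1445 bp (SD, n = 2) and 12784 ± 742 bp (SD, n = 3), and the difference was 3806 ± 1108 bp (SE), a ratio of 1.30 (exact permutation test, two-sided, p = 0.10, the smallest possible; adjusted p = 1 over 15636 genes). Higher values without overlap were found in 3.73% of genes and lower values in 0.0767%. Among the 1713 genes with a peak in every library the shares were 13.95% and 0.175%. The widest domains of Gata2 overlapped, at 13177 to 16538 bp in cKO cocaine and 12617 to 13858 bp in cKO saline. Without the cKO replicates 1, which leaves 1 cKO cocaine library, the difference in covered length was 5200 bp. With lists of equal length, which left Gata2 no peak in the cKO replicates 1, the sign turned (−725 bp, exact permutation p = 1), as it did per covered Mb of the list (−503 bp).

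At Gata3 the cKO cocaine libraries measured 17398 and 24984 bp, and the cKO saline libraries 18265, 23557 and 15223 bp (2176 ± 4507 bp, exact permutation p = 0.60). Gata4 measured 19254 and 33797 bp in cKO cocaine and 19464, 32937 and 19118 bp in cKO saline (2686 ± 8578 bp, exact permutation p = 0.60). In both genes the replicates numbered 2 of the 2 groups were high and the other cKO libraries low, so the spread within the groups exceeded the difference between them.

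Gata5 measured 2005 and 2478 bp in cKO cocaine and 1807, 2779 and 1435 bp in cKO saline (235 ± 465 bp, exact permutation p = 0.80). Gata6 measured 12195 and 14441 bp in cKO cocaine and 10731, 13621 and 9940 bp in cKO saline (1887 ± 1585 bp, exact permutation p = 0.30). All 5 means were higher after cocaine, as in 91.6% of the genes with a peak in every library. With equal numbers of peaks, and per covered Mb of the list, all 5 were lower. Without the cKO replicates 1, 4 of the 5 genes (Gata2, Gata3, Gata4 and Gata6) lay above the saline libraries in the 1 cocaine library left. So did 67.3% of the genes with a peak in these libraries and 79.2% of the 1713 genes with a peak in every library. The differences were then 5594 bp at Gata3, 7769.5 bp at Gata4, 371 bp at Gata5 and 2660.5 bp at Gata6.

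Whether the effect of cocaine differed between the genotypes was tested with the difference of the 2 effects, for which 200 arrangements allow a smallest p of 0.005. The effect in cKO minus that in WT was −1611.5 bp at Gata5 (exact permutation p = 0.115) and 2495.5 bp at Gata2 (exact permutation p = 0.345). At Gata3, Gata4 and Gata6 the differences were −30.7, −552 and 24.3 bp (exact permutation p = 0.995, 0.95 and 0.995). None of the 5 tests passed 0.05. Without the cKO replicates 1 the differences of the effects were 3890, 3387, 4532, −1475 and 797.5 bp from Gata2 to Gata6, with 1 cKO cocaine library left and no test given.

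The genotypes were then compared at the same treatment, with the same groups as above used again. After saline, all 5 means were lower in cKO than in WT, and 0 of 5 genes separated the groups, against 0.712% of genes with higher and 0.396% with lower values in cKO. The differences were −2507 ± 1261 bp for Gata2, −4170 ± 2744 bp for Gata3, −4497 ± 5448 bp for Gata4, −250 ± 545 bp for Gata5 and −1221 ± 1218 bp for Gata6 (SE, exact permutation p from 0.20 to 0.70, adjusted p = 1 over 14883 genes). Over all genes tested the mean was higher in cKO saline in 86.4%, and over the genes with a peak in every library in 57.0%. Without cKO saline replicate 1 the differences of the Gata genes were −2880, −3795, −2309.5, −150 and −871 bp from Gata2 to Gata6. Gata2 was then lower in cKO saline without overlap, as were 10.2% of the genes then tested and 20.9% of the 1713 genes with a peak in every library. Higher values in cKO saline without overlap were then found in 1.42% and 0.759%. Without cKO saline replicate 2 the differences were larger, at −6441 bp for Gata3, −9046 bp for Gata4 and −2316 bp for Gata6, and these 3 genes were lower without overlap, as were 1.46% of the genes then tested and 10.2% of the 1713 genes. With single libraries left out, the differences nearest to 0 were −1484.5 bp for Gata2, −2274 bp for Gata3, −2136.5 bp for Gata4 and −475 bp for Gata6. With equal numbers of peaks the differences were −6572, −9294, −10439, −583 and −2388 bp from Gata2 to Gata6 (exact permutation p from 0.10 to 0.60). Gata2 was then lower without overlap, as were 4.74% of the genes then tested and 13.7% of the 1713 genes. This setting left Gata2 and Gata5 no peak in cKO saline replicate 1. Per covered Mb of the list the sign was negative for all 5 genes as well.

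After cocaine, Gata5 was lower in cKO than in WT without overlap, at 2005 and 2478 bp against 3743 to 4432 bp. The difference was −1862 ± 309 bp (SE), a ratio of 0.546 (exact permutation test, two-sided, p = 0.10, the smallest possible; adjusted p = 0.691 over 13374 genes), and lower values without overlap were found in 2.89% of genes, higher values in 7.11%. Among the 1713 genes with a peak in every library the order was the converse, with lower values in 11.9% and higher values in 3.50%. The WT cocaine libraries are the same as in the comparison of treatments, so the 2 results for Gata5 are not independent. Without cKO cocaine replicate 1, which leaves 1 cKO cocaine library, the difference was −1625 bp. The separation was also present with equal numbers of peaks (−2707 bp), a setting that left Gata5 no peak in cKO cocaine replicate 1. Lower values without overlap were then found in 11.1% of genes and in 30.2% of those with a peak in every library. Per covered Mb the separation was present too (−139 bp, exact permutation p = 0.10), where the shares were 4.82% and 17.4%. With 50 kb on each side of the gene the groups overlapped and the difference was −1528 bp (exact permutation p = 0.30). The widest domain of Gata5 also overlapped between the groups, at 2180 to 3345 bp in cKO cocaine and 2284 to 4730 bp in WT cocaine.

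The other 4 genes overlapped between cKO cocaine and WT cocaine. Gata2 differed by −11.5 ± 1227 bp (exact permutation p = 1). Gata3, Gata4 and Gata6 differed by −4200 ± 3832, −5049 ± 7559 and −1196 ± 1457 bp (SE, exact permutation p = 0.20, 0.50 and 0.50). Without cKO cocaine replicate 1, Gata2 and Gata4 were higher in the remaining cKO cocaine library than the mean of WT cocaine, by 1010 and 2222 bp, and the differences of Gata3 and Gata6 were −407 and −73.3 bp. The library left out, cKO cocaine replicate 1, had 17398 bp at Gata3 and 12195 bp at Gata6, against WT cocaine means of 25391 and 14514 bp. With equal numbers of peaks the differences were −8183.5 bp at Gata2, −12220.5 bp at Gata3, −14058.5 bp at Gata4 and −6970.5 bp at Gata6 (exact permutation p from 0.10 to 0.40). The groups of Gata2 then no longer overlapped (lower values in 11.1% of genes and 30.2% of the 1713), and this setting left Gata2 no peak in cKO cocaine replicate 1.

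**Figure D5:**
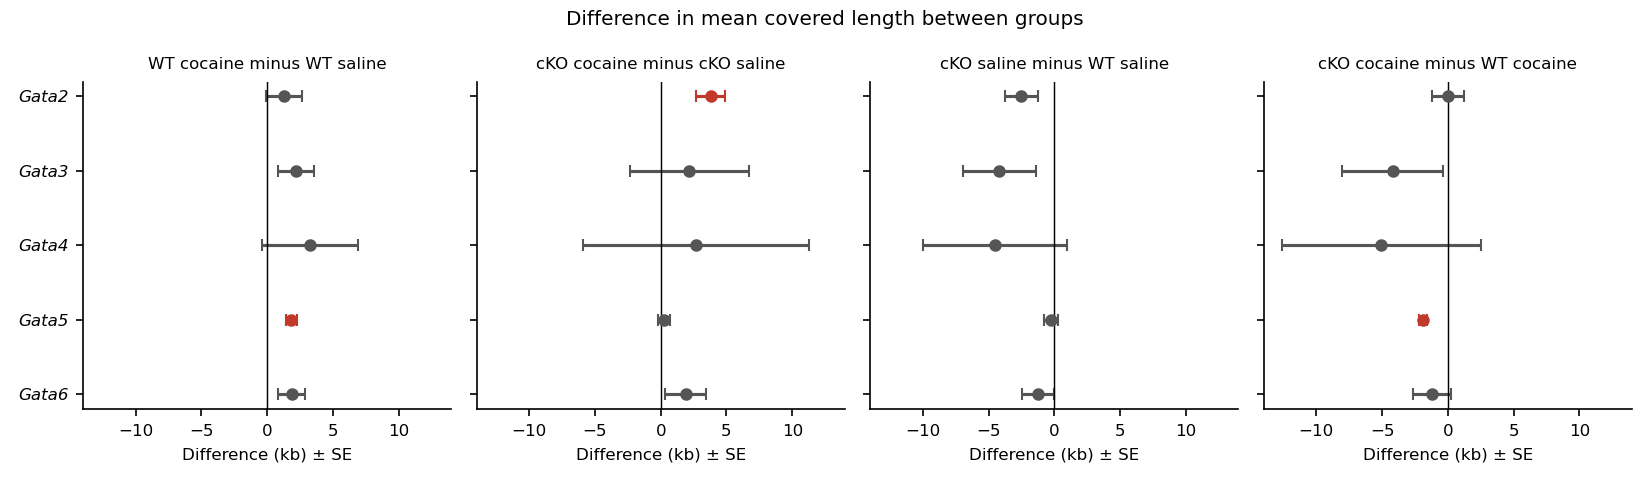
Differences in mean covered length (horizontal axis, kb, points) with SE (bars) for the 5 Gata genes in the 4 comparisons. Red points mark genes whose groups do not overlap, namely Gata5 in WT cocaine against WT saline (1846 bp) and in cKO cocaine against WT cocaine (−1862 bp) and Gata2 in cKO cocaine against cKO saline (3806 bp).

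None of the 20 comparisons of single genes could pass 0.05, because 3 against 3 and 2 against 3 libraries allow no p below 0.10.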

How the data were processed

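H2Aub ChIPmentation lists of 11 libraries were used, and 4 total input samples were not used here. The authors aligned reads to mm10 (Bowtie2 2.3.4.1, per the labels) and ran MACS2 in its broad mode against total input on each library, with no pooling of replicates. Each deposited list gave peak positions, a score, a linear fold enrichment ratio, and the −log10 of the p-value and of the q-value. The highest q in the deposited lists was 0.0997. They held no read counts, so the depth of each library is unknown and was not corrected for.

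Genes came from a GRCm38.p6 table with the coordinates of mm10. For each gene, the bp under peaks in the body plus 10 kb on each side were computed. Peaks within 1 kb were joined into domains. Differences of group means over libraries were tested by exact, two-sided permutation, with Benjamini-Hochberg adjustment over all protein-coding genes with a peak in the groups compared. A gene was called where the groups did not overlap. The code was tested on simulated data (Python 3.11.15, numpy 2.4.6, pandas 2.3.3). The study describes independent replicates, each from pooled thalami. Replicates shared at most 1 identical peak. All 5 members were named, partners by the highest and lowest of their list, and the 5 most similar genes per member, some of which are not reported here. The members and lists were chosen with earlier results of these data known. Alternatives were stricter q, equal numbers of peaks, other windows, bp per covered Mb of the list, a replicate block and single libraries left out.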

Additional observations from a re-analysis of the deposited data

How the results depend on the processing

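The count of Gata genes with a peak in every library was 4 at q at most 0.01 and 3 with equal numbers of peaks, where 1.88% and 2.04% of protein-coding genes had one. The percentages in parentheses are the share of the 1713 genes with a peak in every library that separated in the same direction under the same setting. The count with WT cocaine above WT saline without overlap (1) became 2 at q at most 0.05 (35.2%), at q at most 0.01 (25.9%) and with the gene body alone (26.0%), 3 with equal numbers of peaks (26.5%), and 0 per covered Mb of the list (10.2%), where 1 gene (Gata2) was lower (8.64%), and was 1 to 3 with single libraries left out (3 without WT saline replicate 1, 61.0%). The count with cKO cocaine above cKO saline (1) became 0 with equal numbers of peaks (2.51%) and per covered Mb (9.69%), 4 without both cKO replicates 1 (79.2%), and 1 to 4 with single libraries left out (4 without cKO cocaine replicate 1, which leaves 1 cKO cocaine library, 28.8%, and 3 without cKO saline replicate 2, 22.7%). The count with cKO saline below WT saline (0) became 1 with equal numbers of peaks (13.7%), 5 kb on each side (3.15%), the body alone (3.56%) and without cKO saline replicate 1 (20.9%), and was 0 to 3 with single libraries left out (3 without cKO saline replicate 2, 10.2%). The count with cKO cocaine below WT cocaine (1) became 2 with equal numbers of peaks (30.2%) and the body alone (10.97%), and 1 to 5 with single libraries left out. The 5 came without cKO cocaine replicate 2, which leaves only cKO cocaine replicate 1, a library that stood apart (26.9%). Leaving out libraries cannot end a separation. In the 7 alternatives that keep every library and use no block, Gata5 separated the WT groups in 6 and the cocaine groups in 6, and Gata2 the cKO groups in 5. The cause of these changes was not tested.

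In the comparisons with 3 shared numbers, replicate numbers did not pair the libraries, since in none did every pair correlate above 0.1 (−0.0117, 0.0662 and −0.00389 in WT). With 2 shared numbers, the pairs of the cKO groups correlated above 0.1, at 0.485 and 0.371, so these libraries may be paired by number. The pairs of the cocaine groups had −0.101 and −0.130. With the replicate block, counting genes that differed in 1 direction within every shared number, the counts were 3, 2, 1 and 2 in the order above, where 26.4%, 11.9%, 1.46% and 11.9% of the genes tested did so, and 60.7%, 41.6%, 6.83% and 40.9% of those with a peak in every library, and Gata5 in cKO turned to −51.5 bp.

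In bp per covered Mb, WT cocaine minus WT saline was −712 (Gata2), −1095 (Gata3), −1230 (Gata4) and −555 (Gata6), and cKO cocaine minus cKO saline was −503, −903, −1189, −96.2 and −563 from Gata2 to Gata6. With equal numbers of peaks the latter were −725, −618, −547, −708 and −2562 bp, and Gata5 was −168 bp at q at most 0.05. With the gene body alone, cKO cocaine minus WT cocaine was 35.5 bp for Gata2. Without both cKO replicates 1 that difference was 1010 bp for Gata2 and 2222 bp for Gata4. Over single libraries left out it lay between −1033 and 1010 bp (Gata2) and −12321 and 2222 bp (Gata4), cKO cocaine minus cKO saline from −1617 to 5969 (Gata3), −4586 to 9957 (Gata4) and −51.5 to 621 bp (Gata5), and cKO saline minus WT saline from −636 to 55.0 bp (Gata5). The difference of effects between genotypes ran from −3824 to 3762 (Gata3), −7823 to 6720 (Gata4) and −1099 to 1147 bp (Gata6). It was 192, 40.8 and −8.63 bp per covered Mb for these genes, and without both cKO replicates 1 it was 3387 bp for Gata3 and 4532 bp for Gata4. Of the widest domains, 63 values under alternatives moved by less than the SD between libraries and 7 by more, all 7 from joining peaks over 3 kb or only where they touch. The depth of each library is unknown, so no limit of detection can be given.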
